A study of Homo sapiens with 6 samples.

Results

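The genes described here are 5 genes of antigen presentation by MHC molecules, taken from a deposited comparison of LX2 cells with and without GDF15. They are CIITA and CD74 of the class II pathway and NLRC5, TAP1 and TAPBP of the class I pathway, 5 of 453 rows in the authors' table. Rows were matched by gene name, and the genes were selected on their listed difference between the groups, the authors' unadjusted p and fold change with GDF15. Every row of the table has an unadjusted p under 0.05 in the authors' comparison, so the differences below are a description of genes chosen for them and were not tested again. LX2 is a human line of hepatic stellate cells, the liver cell that stores retinoids at rest and deposits matrix when activated. GDF15 is a cytokine related to TGF-beta that stressed cells secrete. The 6 poly(A) RNA libraries are 3 of LX2 cells exposed for 24 h to recombinant GDF15 protein (1 ug/ml) and 3 of LX2 cells left untreated, with no genetic change named for either group. The labels call the cells epithelial and the design text calls them stellate. Whether separate cultures lie behind the libraries is not said, so spreads between libraries may be technical.

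MHC class I molecules show peptides from inside the cell to CD8 T cells. The transporter subunit TAP1 helps carry peptides into the endoplasmic reticulum, and tapasin, made from TAPBP, holds empty class I molecules at the transporter while they load. NLRC5 is the transactivator of class I genes. MHC class II molecules show peptides from endosomes to CD4 T cells. CIITA is the master transactivator of class II genes, and CD74 encodes the invariant chain that blocks and steers class II molecules before loading. CIITA and NLRC5 belong to the same NLR protein family and do not bind DNA themselves but act through factors bound at promoters. Interferon-gamma, in part through IRF1, is the classic inducer of both arms in cells that are not professional antigen-presenting cells, and NF-kB also acts on class I promoters.

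Promoter sequences were at hand for 3 of the 5 members, CD74, TAP1 and TAPBP. They are shown because these genes were highest in the same library, GDF15 replicate 1, as listed interferon and NF-kB pathway genes. That library was the highest for 65.7% of the 274 features listed as higher, so a top there is common in the table. The size of the peak varied. The ratio of GDF15 replicate 1 to the mean of replicates 2 and 3 had a median of 1.31 over these features. It was 1.93 for TAPBP, 2.34 for TAP1 and 3.17 for CD74, and 70 of the 274 features reached at least the value of TAPBP. For the 6 signalling genes described below it ran from 1.57 (STAT2) to 3.48 (IRF7). The sequences are the 250 bases before the RefSeq start on GRCh38.p14, written 5′ to 3′ on the strand of the gene. CIITA and NLRC5 are the other members. For TAP1 the table holds windows for 2 starts and the upstream start is shown. Capitals mark matches, on either strand, to the Y box core CCAAT, the X2 box core TGACG, the interferon-stimulated response element core (GAAA, any 2 bases, GAAA), the gamma-activated site TTCNNNGAA or the NF-kB consensus.
CD74 promoter, chr5:150412911-150413160, minus strand: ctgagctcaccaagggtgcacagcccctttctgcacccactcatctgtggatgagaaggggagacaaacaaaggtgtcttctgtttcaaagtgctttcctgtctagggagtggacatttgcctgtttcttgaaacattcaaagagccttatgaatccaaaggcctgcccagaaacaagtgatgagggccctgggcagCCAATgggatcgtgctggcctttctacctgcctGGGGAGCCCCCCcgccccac
TAP1 promoter, chr6:32853705-32853954, minus strand: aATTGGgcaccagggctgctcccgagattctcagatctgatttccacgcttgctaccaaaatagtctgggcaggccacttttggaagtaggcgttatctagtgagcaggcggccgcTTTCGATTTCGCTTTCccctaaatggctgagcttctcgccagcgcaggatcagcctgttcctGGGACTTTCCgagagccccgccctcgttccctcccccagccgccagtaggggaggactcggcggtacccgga
TAPBP promoter, chr6:33314079-33314328, minus strand: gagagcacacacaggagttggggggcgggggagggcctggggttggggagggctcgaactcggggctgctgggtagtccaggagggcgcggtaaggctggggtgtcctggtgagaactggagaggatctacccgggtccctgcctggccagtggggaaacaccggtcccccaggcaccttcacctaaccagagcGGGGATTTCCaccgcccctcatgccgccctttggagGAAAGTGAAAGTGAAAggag
In the CD74 window the capitals are a Y box core 53 bases before the start and an NF-kB consensus match in a GC-rich run that begins 20 bases before it, where 3 overlapping matches share bases. In the TAP1 window they are a Y box core on the other strand, 2 overlapping response element cores on the other strand that begin 134 and 128 bases before the start, and an NF-kB match 72 bases before it. The TAPBP window holds an NF-kB match 56 bases before the start and 2 overlapping response element cores 20 and 14 bases before it. Of 34943 promoter windows of this length, 3.02% hold the response element core, 9.95% the NF-kB consensus and 32.0% the Y box core. The gamma-activated site letters stand in 6.56% and the X2 letters in 21.2% of windows, and neither stands in these 3. The window of the other TAP1 start, not shown, holds a gamma-activated site match 189 bases before that start. A match of letters is a description and no measurement of binding.

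All 5 members were higher with GDF15, by 1.51-fold to 2.99-fold in the mean, and the class II genes more than the class I genes. CD74 was 2.99-fold and CIITA 1.85-fold higher, against 1.60-fold for TAP1, 1.56-fold for NLRC5 and 1.51-fold for TAPBP. CIITA differed from the other 4 members in how the libraries carried this. It was higher in each of the 3 GDF15 libraries to a like degree, whereas CD74 and the class I genes were far higher in GDF15 replicate 1 than in replicates 2 and 3, by 1.79 times for NLRC5 to 3.17 times for CD74. In replicates 2 and 3 the class I genes were close to untreated levels. In the authors' deposited table the log2 fold changes were 1.58 for CD74, 0.87 for CIITA, 0.68 for TAP1, 0.64 for NLRC5 and 0.59 for TAPBP. The unadjusted p-values in the authors' deposited table, which decided the listing, were 0.00159, 0.0153, 0.0355, 0.0316 and 0.0293 in the same order. A gene with a low count or a wide spread needs a larger fold to reach a given p. The class II genes had the lowest untreated means, 25.6 for CIITA and 59.5 for CD74, against 366 to 7469 for the class I genes. The part of the listing in the larger folds of class II was not tested. The adjusted p in the authors' deposited table was 0.911 for every row, so none of the members passed an adjusted p of 0.05. Of all rows, 60.5% were listed as higher.

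A single GDF15 library stood apart in the table as a whole. Of the 274 features listed as higher, 180 peaked in GDF15 replicate 1, and 185 were lowest in untreated replicate 2. Normalized counts of all listed features summed to 470046 in GDF15 replicate 1 and to between 279332 and 326126 in the other 5 libraries. A normalized count is a read count divided by a factor for its library, and since the table is selected the depth of a whole library is unknown. Among the members, 4 of 5 were highest in GDF15 replicate 1 and 4 of 5 lowest in untreated replicate 2. The part of these libraries in each result is therefore given by leaving them out. In bulk RNA, more cells with a transcript and more transcript per cell cannot be told apart.

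**Figure D1:**
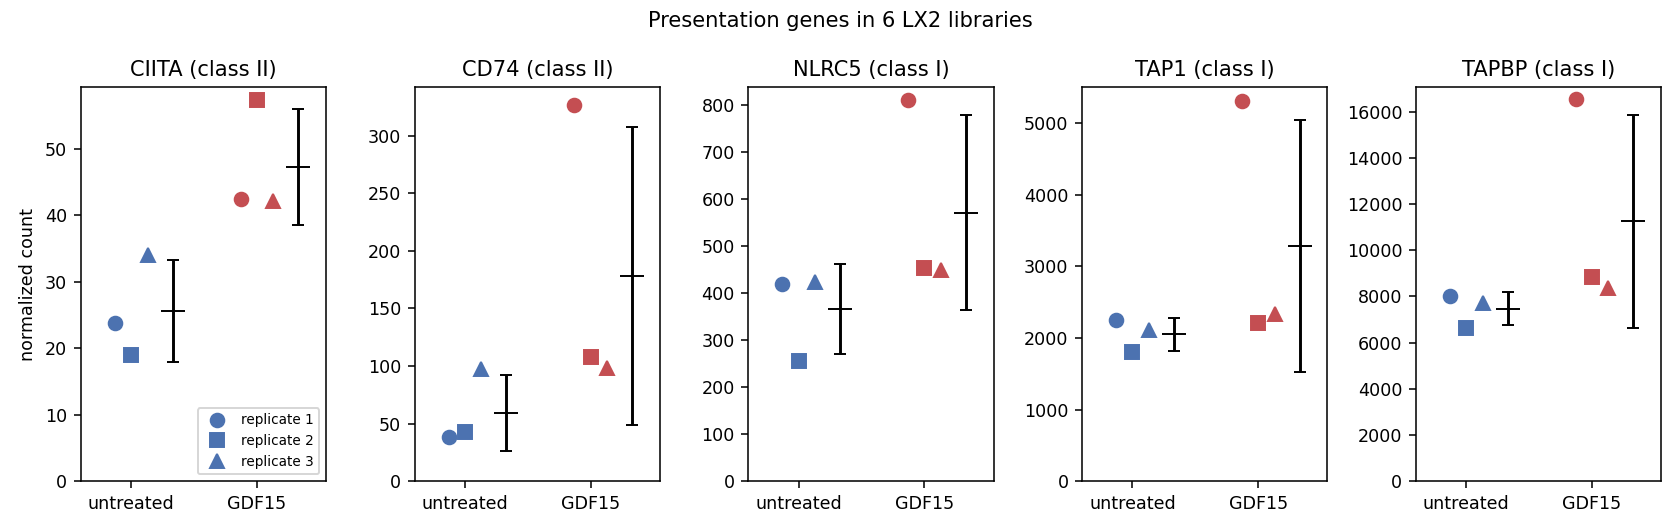
Normalized counts of the 5 genes (y axes, each from 0) in untreated (blue) and GDF15 (red) LX2 cells; each point is a library and the bars give the mean ± SD of 3 libraries. GDF15 replicate 1 (circle) stands alone at the top for CD74, NLRC5, TAP1 and TAPBP, while for CIITA the 3 GDF15 libraries at 42.1 to 57.3 lie together above the untreated ones.

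CIITA (ENSG00000179583, GRCh38 chromosome 16, 10866222 to 10943021, plus strand) had 42.4, 57.3 and 42.1 normalized counts (GDF15 replicates 1, 2 and 3) against 23.8, 19.0 and 34.0 (untreated replicates 1, 2 and 3). Its highest library was GDF15 replicate 2, not replicate 1, and the groups did not overlap. The means were 47.3 ± 8.68 with GDF15 and 25.6 ± 7.70 without (SD, n = 3). The log2 ratio of means was 0.88 over all libraries, 0.96 once GDF15 replicate 1 was left out and 0.78 without both GDF15 replicate 1 and untreated replicate 2. On the log2(normalized count + 1) scale the difference was 0.88 ± 0.27 (SE by limma). CIITA is a weak signal here. If a step of the normalized scale is 1 read, its values rest on 20 to 51 reads per library. The lowest GDF15 value, 42.1, then has a 95% exact Poisson interval of 29.8 to 57.8 normalized counts, and the highest untreated value, 34.0, one of 24.6 to 45.9. These intervals overlap, and they cover counting error only. Of the exon bases of CIITA, 11.6% are shared with DEXI on the opposite strand and 11.5% with the clone-named gene AC133065.3 on the same strand. Whether counting used strand is not given, so reads of these genes and of CIITA cannot be told apart there.

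CD74 (ENSG00000019582, chromosome 5, 150401637 to 150412929, minus strand) reached 327, 108 and 98.6 normalized counts with GDF15, in the order of replicates 1, 2 and 3 kept from here on. The untreated libraries had 38.4, 42.6 and 97.4. GDF15 replicate 1 was 3.17 times the mean of the other 2 GDF15 libraries, and untreated replicate 3 was level with them. The means were 178 ± 129 and 59.5 ± 32.9 (SD, n = 3), a log2 ratio of 1.58. The groups do not overlap by a margin of 1.29%, between GDF15 replicate 3 and untreated replicate 3. With a step taken as 1 read these 2 values are 89 and 123 reads, with 95% exact Poisson intervals of 79.2 to 121 and 80.9 to 116 normalized counts. The log2 ratio of means was 0.80 without GDF15 replicate 1 and 2.13 without untreated replicate 3. Without both GDF15 replicate 1 and untreated replicate 2 it was 0.61, a 1.52-fold difference. The limma difference on the log2(normalized count + 1) scale was 1.47 ± 0.54 (SE).

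NLRC5 (ENSG00000140853, chromosome 16, 56989485 to 57083531, plus strand) had 809, 454 and 448 normalized counts with GDF15 and 420, 256 and 423 without. Both extremes are single libraries, GDF15 replicate 1 at the top and untreated replicate 2 at the bottom, and the other 4 lie within 420 to 454. The means were 570 ± 207 and 366 ± 95.6 (SD, n = 3). Its log2 ratio of means, 0.64 over all libraries, was 0.30 once GDF15 replicate 1 was left out and 0.44 once untreated replicate 2 was. Without both it was 0.10, a 1.07-fold difference. NLRC5 has no exon base in common with another annotated gene.

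TAP1 (ENSG00000168394, chromosome 6, 32845209 to 32853978, minus strand) lies in the MHC region and had 5308, 2208 and 2334 normalized counts with GDF15. The untreated libraries had 2245, 1800 and 2112. GDF15 replicate 2 fell below untreated replicate 1, so TAP1 is the only member whose groups overlap. The means were 3283 ± 1754 and 2052 ± 229 (SD, n = 3), a log2 ratio of 0.68. Without GDF15 replicate 1 this ratio was 0.15, a 1.11-fold difference, and without untreated replicate 2 as well it was 0.06. Of its exon bases, 9.49% are shared with the antisense transcript gene PSMB8-AS1, which is not among the listed features.

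TAPBP (ENSG00000231925, chromosome 6, 33299694 to 33314387, minus strand), also in the MHC region, was the most abundant member. It had 16559, 8828 and 8352 normalized counts with GDF15 and 8023, 6650 and 7733 without. GDF15 replicate 1 was 1.93 times the mean of the other 2 GDF15 libraries, which lay 4.10% or more above the highest untreated library. The means were 11246 ± 4607 and 7469 ± 723 (SD, n = 3). Its log2 ratio of means was 0.59, and 0.20 when GDF15 replicate 1 was left out and 0.12 when untreated replicate 2 was left out too. The limma differences of the class I genes on the log2(normalized count + 1) scale were 0.62 ± 0.33 for NLRC5, 0.56 ± 0.36 for TAP1 and 0.52 ± 0.30 for TAPBP (SE).

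**Figure D2:**
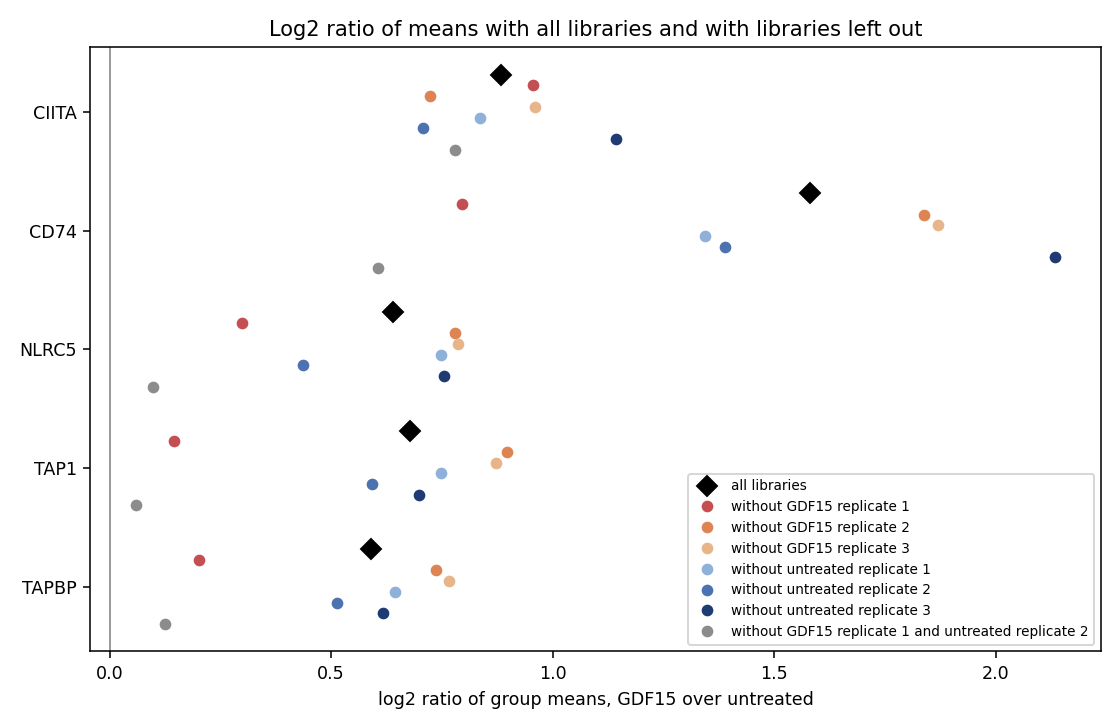
Log2 ratio of mean normalized counts, GDF15 over untreated (x axis), for each gene (y axis) with all 6 libraries (black diamond), with each library left out in turn (coloured points) and without both libraries that stood apart (grey). Leaving out GDF15 replicate 1 moves TAP1 from 0.68 to 0.15 and CD74 from 1.58 to 0.80, while CIITA stays between 0.71 and 1.14.

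Without overlap between the groups there were 4 of 5 members, all higher, where 37.3% of all listed features were higher without overlap. That share is 169 features, and only 274 of the 453 were listed as higher, as all 5 members were. Nothing is read from the count of members, because the same contrast chose the genes. For all 4 the lowest GDF15 and the highest untreated library had overlapping counting intervals when a step is taken as 1 read. When limma was fitted to log2(normalized count + 1) of all 453 features, 2 of 5 members, CIITA and CD74, had an unadjusted p under 0.05. Of all listed features 23.0% were called as higher, which is 104 features beside the 274 listed as higher. Nothing is read from this count either. Over the 5 members the median log2 ratio of means was 0.68, and over the 274 higher features it was 0.70. Without GDF15 replicate 1 these medians were 0.30 and 0.48.

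Set side by side, the class II arm stood above the class I arm in every GDF15 library. Each library was scored by the mean, over the genes of an arm, of log2(normalized count + 1) less the untreated mean of that gene. The class I score was 1.24, 0.23 and 0.23 in the GDF15 libraries and 0.16, -0.27 and 0.12 in the untreated ones. The class II score was 1.66, 1.07 and 0.79 in the GDF15 libraries and -0.28, -0.36 and 0.63 in the untreated ones. For both arms all GDF15 libraries scored above all untreated ones, by a wide margin only in GDF15 replicate 1 for class I. The GDF15 mean was 0.57 ± 0.58 for class I and 1.17 ± 0.44 for class II (SD, n = 3), with untreated SDs of 0.24 and 0.55. The difference, class II minus class I, was 0.42, 0.84 and 0.56 with GDF15 and -0.43, -0.08 and 0.52 without. Untreated replicate 3 thus had a larger lead of class II than GDF15 replicate 1 and a smaller one than the other 2 GDF15 libraries, so the groups overlap in this difference. Between groups the difference was 0.61, of the order of the untreated SD of 0.48. The limit stated for the folds, that genes with low counts need a larger fold to be listed, holds for this lead too.

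Without GDF15 replicate 1 the shift of the class I arm went from 0.57 to 0.23 and that of the class II arm from 1.17 to 0.93. The lead of class II was then 0.70, and 0.87 without untreated replicate 3. It was 0.39 without untreated replicate 1, the lowest of the libraries left out singly. With the transactivators alone, CIITA against NLRC5, the lead was 0.27. With the presentation genes alone, CD74 against TAP1 and TAPBP, it was 0.92.

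**Figure D3:**
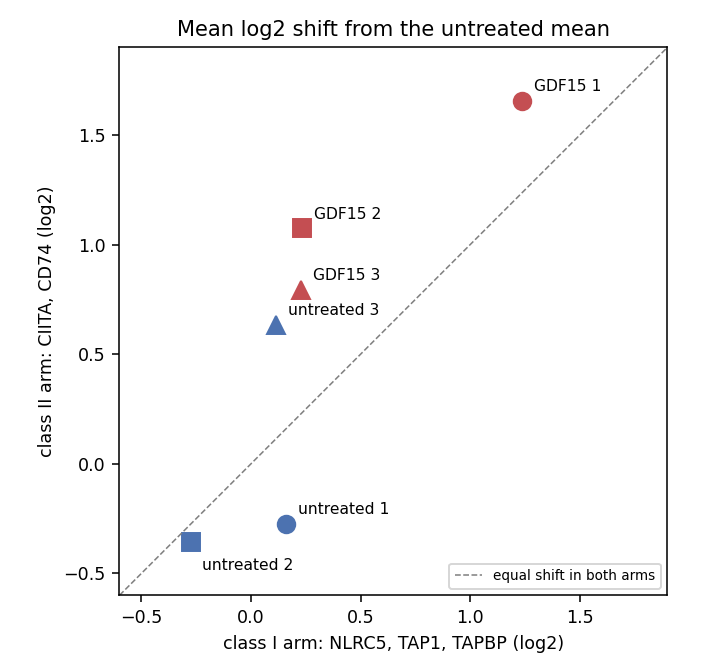
Mean log2 shift of each library from the untreated mean for the class I arm (x axis; NLRC5, TAP1, TAPBP) and the class II arm (y axis; CIITA, CD74) on the log2(normalized count + 1) scale; each point is a library and the dashed line marks equal shifts. GDF15 replicates 2 and 3 moved up with little move to the right (0.23 each on the class I axis), and untreated replicate 3 lies near them at 0.63 on the class II axis.

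Ratios between members within a library do not depend on the factor the library was normalized by. TAP1 per TAPBP, a pair that works in the same loading complex, was 0.321, 0.250 and 0.280 with GDF15 and 0.280, 0.271 and 0.273 without. The highest ratio was 1.28 times the lowest. CD74 per CIITA, a target and its transactivator, was 7.71, 1.88 and 2.34 with GDF15 and 1.61, 2.25 and 2.86 without. GDF15 replicate 1 thus held much more CD74 for its CIITA than any other library, and the remaining 5 lay between 1.61 and 2.86. CD74 per TAP1 was 0.0616, 0.0489 and 0.0423 with GDF15 and 0.0171, 0.0237 and 0.0461 without, so on this ratio untreated replicate 3 lay within the range of the GDF15 libraries. CIITA per NLRC5 was lowest in GDF15 replicate 1 at 0.0524 and highest in GDF15 replicate 2 at 0.126, with untreated values of 0.0568, 0.0741 and 0.0805.

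**Figure D4:**
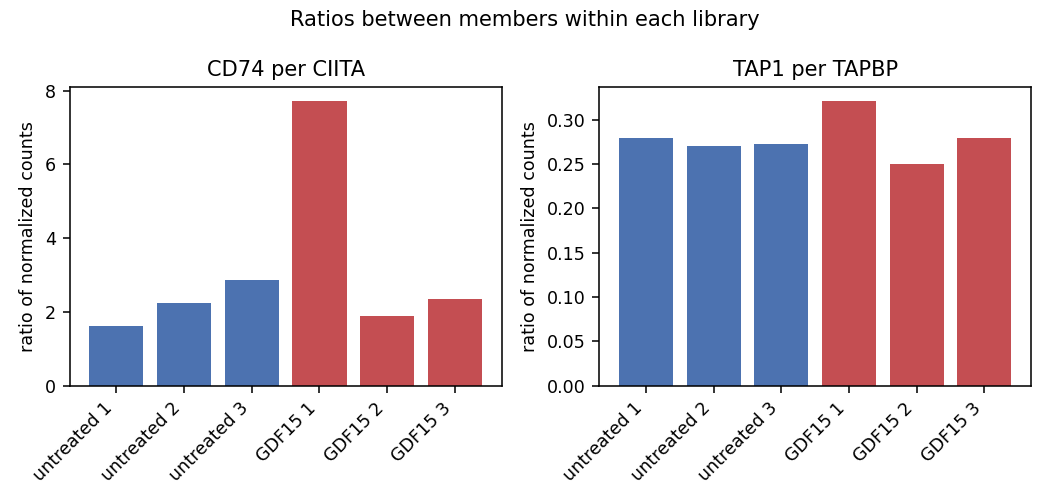
Ratio of normalized counts of CD74 to CIITA (left) and of TAP1 to TAPBP (right) in each library (bars, y axes from 0; untreated blue, GDF15 red). CD74 per CIITA reaches 7.71 in GDF15 replicate 1 alone, while TAP1 per TAPBP stays between 0.250 and 0.321 in all 6 libraries.

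Per length, the class I genes TAPBP and TAP1 were far more abundant than the other members in every library. Normalized counts were divided by the median length of the gene's coding transcripts with a CCDS tag in GENCODE release 29. Per kilobase the untreated level was 3956 ± 383 for TAPBP, 693 ± 77.2 for TAP1, 54.5 ± 14.2 for NLRC5, 52.3 ± 28.9 for CD74 and 5.50 ± 1.65 for CIITA (SD, n = 3). NLRC5 and CD74 did not differ beyond their spread in untreated cells. With GDF15 the levels per kilobase were 5957 ± 2440 for TAPBP, 1110 ± 593 for TAP1, 156 ± 114 for CD74, 84.8 ± 30.8 for NLRC5 and 10.1 ± 1.86 for CIITA. CD74 stood above NLRC5 in all 3 GDF15 libraries, with 287, 94.8 and 86.7 against 120, 67.5 and 66.6, and also in untreated replicate 3. The length of CIITA is uncertain, as its 3 such transcripts run from 2.34 to 16.1 kb. Those of TAPBP run from 1.30 to 3.76 kb, those of CD74 from 0.98 to 1.45 kb and those of NLRC5 from 6.51 to 6.82 kb. The lead of CD74 over NLRC5 in GDF15 replicate 3 therefore depends on the transcripts taken.

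The class I genes followed each other closely over the 6 libraries, and CIITA followed them less closely. Pearson's r of log2(normalized count + 1), given as a description over 6 libraries that share their normalization and include the group difference that chose the genes, was 0.99 for TAP1 and TAPBP. It was 0.92 for NLRC5 and TAP1 and 0.94 for NLRC5 and TAPBP. CD74 had r = 0.87, 0.86 and 0.89 with NLRC5, TAP1 and TAPBP and 0.72 with CIITA. CIITA had r = 0.65, 0.40 and 0.50 with these class I genes. Over the 5 libraries without GDF15 replicate 1 the class I genes still had r = 0.95 for NLRC5 and TAP1, 0.94 for NLRC5 and TAPBP and 0.90 for TAP1 and TAPBP. CIITA then had r = 0.78, 0.66 and 0.87 with NLRC5, TAP1 and TAPBP and 0.90 with CD74. CD74 then had r = 0.63, 0.47 and 0.63 with these class I genes.

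By the same measure the listed features most like TAPBP were ZC3H12A, which encodes an RNase that limits inflammatory transcripts, C1QTNF1 and the NF-kB subunit gene NFKB2, each with r = 1.00 over 6 libraries. ZC3H12A had 1131, 324 and 264 normalized counts with GDF15 and 264, 179 and 238 without. Most like TAP1 were PARP9, an interferon-stimulated gene, the complement protease gene C1R and the laminin gene LAMB3, with r of 0.99 to 1.00. Most like NLRC5 were KIAA1217, RHBDF2 and SLC12A7, with r of 0.98 to 0.99. RHBDF2, whose product helps release TNF from cells, had 2281, 1381 and 1338 normalized counts with GDF15 and 1254, 673 and 1104 without, the same peak in GDF15 replicate 1 and the same low in untreated replicate 2. Most like CD74 were TNFSF18, CSF3 and NOCT, with r of 0.96 to 0.99. CSF3, which encodes a growth factor of granulocytes, had 142 normalized counts in GDF15 replicate 1 and 0 to 7.86 in the other 5 libraries. Most like CIITA were the clone-named AC008894.3, the cell adhesion gene CADM3 and the antisense transcript HIF1A-AS2, with r of 0.97 to 0.98. HIF1A-AS2 had 31.0, 41.6 and 34.4 normalized counts with GDF15 and 14.5, 15.2 and 25.3 without, with its top in GDF15 replicate 2 as for CIITA.

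Of 22 genes listed for the class I pathway, 3 were in the table, the members NLRC5, TAP1 and TAPBP, and of 17 for the class II pathway 2, CIITA and CD74. All 5 were higher and 0 lower. The median log2 ratio of means was 0.64 for the class I list and 1.23 for the class II list. It was 0.47 over all 453 features and 0.70 over the 274 listed as higher. Without GDF15 replicate 1 it was 0.20 for the class I list and 0.88 for the class II list, beside 0.48 for features listed as higher. The remaining 19 and 15 genes, which include the HLA genes, B2M, TAP2 and the immunoproteasome genes PSMB8, PSMB9 and PSMB10, are not in the table and were not analysed here. None of the 7 promoter-binding partners of the transactivators (RFX5, RFXAP, RFXANK, CREB1, NFYA, NFYB and NFYC) was listed. Nor were any of 11 natural killer cell ligand genes, 8 nonclassical presentation genes or 6 genes of CD74 as the receptor of the cytokine MIF.

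Of 17 genes whose products signal to CIITA, NLRC5 and the class I promoters, 6 were listed, and all 6 were higher. Their median log2 ratio of means was 0.81, beside 0.70 for all features listed as higher, which make up 60.5% of the table. Without GDF15 replicate 1 the 2 medians were 0.21 and 0.48. IRF1, the interferon-induced activator of CIITA and TAP1, had 5255, 2449 and 2261 normalized counts with GDF15. Its untreated values were 2230, 1978 and 1803, so the groups did not overlap, and the fold went from 1.66 to 1.18 without GDF15 replicate 1. IRF9, the DNA-binding part of the type I interferon factor, had 132, 65.2 and 53.2 against 39.4, 25.6 and 44.3, also without overlap. Its partner gene STAT2 had 2663, 1585 and 1803 against 1631, 1211 and 1409, with overlapping groups. IRF7 had 1572 in GDF15 replicate 1 and between 416 and 488 in all other libraries. The NF-kB inhibitor gene NFKBIA likewise had 4506 in that library and between 1148 and 1438 elsewhere. NFKB2 had 6865, 3719 and 3328 against 3338, 2860 and 3147. All 6 were thus highest in GDF15 replicate 1, as were CD74, the class I members and 65.7% of all features listed as higher. Over 6 libraries IRF1 had r = 0.97 with TAP1 and TAPBP, 0.85 with NLRC5, 0.80 with CD74 and 0.39 with CIITA. Over the 5 libraries without GDF15 replicate 1 these values were 0.55 with TAP1, 0.69 with TAPBP, 0.44 with NLRC5, 0.14 with CD74 and 0.53 with CIITA.

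Of 14 genes that costimulate or restrain T cells, 3 were listed as higher, with a median log2 ratio of means of 0.91, or 0.55 without GDF15 replicate 1. For all features listed as higher these medians were 0.70 and 0.48. TNFSF18, the gene of GITR ligand, had 120, 66.3 and 64.3 normalized counts with GDF15 and 38.4, 35.1 and 60.2 without. As for CD74, the top was in GDF15 replicate 1 and untreated replicate 3 lay close to the remaining GDF15 libraries, and r with CD74 was 0.99. ICOSLG, the ligand gene of the T cell receptor ICOS, had 62.1, 23.6 and 17.7 against 22.8, 5.69 and 12.7, with overlapping groups. CD40, a receptor for T cell help that also signals to NF-kB, had 911, 657 and 646 against 580, 549 and 549. Its groups did not overlap, and the 1.32-fold difference became 1.17-fold when GDF15 replicate 1 was left out.

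**Figure D5:**
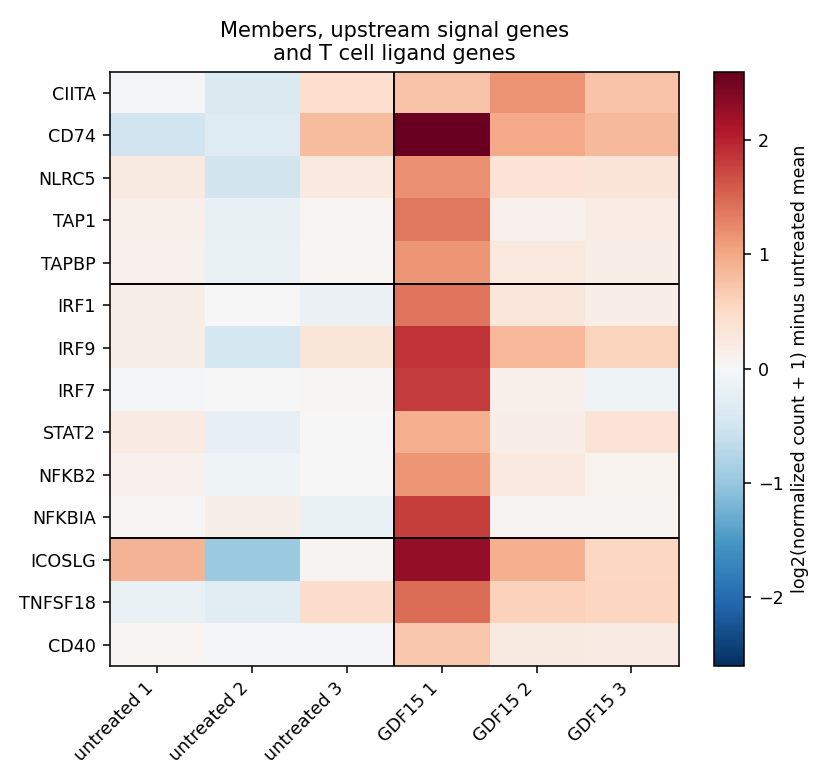
Difference of log2(normalized count + 1) from the untreated mean (colour, red higher and blue lower) for the 5 members, 6 signalling genes and 3 T cell ligand or receptor genes (rows) in each library (columns). GDF15 replicate 1 is the reddest column for every row but CIITA, whose highest value, 1.17, is in GDF15 replicate 2.

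The labelled cell type could not be checked, because genes are listed for a difference between the groups and not for their level. Of 14 stellate cell markers 1 was listed, PDGFRA, a growth factor receptor gene, with 50.7, 24.7 and 28.8 normalized counts with GDF15 and 13.5, 19.9 and 12.7 without. None of 14 markers of leukocytes and professional antigen-presenting cells, 8 of epithelial cells and hepatocytes and 6 of endothelial cells is in the table. Their levels were not analysed here, and the part of such cells in the class II transcripts was not tested.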

How the data were processed

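Poly(A) RNA of 6 LX2 libraries was measured, 3 per group. Reads were handled with STAR 2.5.2b, Trimmomatic 0.36, Subread 1.5.2, DESeq2 and featureCounts on GRCh38, per the submitters' processing notes; settings, annotation and strand were not given in the sources used here. The authors deposited 1 table. It holds the authors' log2 fold changes and the authors' p-value before and after adjustment. The deposited signal columns hold normalized counts, whole multiples of 1 step per library within 0.001 of a step (100% of values), with steps from 0.792 to 1.12. Library factors correct neither GC content nor length.

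Columns were matched to samples by library name, and 0 were left unmapped. Means, SDs, folds and log2 ratios of means were computed over 3 libraries per group. Limma 3.58.1 in R 4.3.3 was fitted to log2(normalized count + 1) of all 453 features, after being tested on simulated data. The simulated counts were independent, of a single dispersion and without a library that stood apart. Unlike these rows they were not selected by p, so that test gives no error rate here. The log2(normalized count + 1) scale understates the change of low genes. An exact permutation test of 3 against 3 libraries cannot go below p = 0.10 and was not used. Counting intervals are exact Poisson at 95%. Positions, lengths and overlaps came from GENCODE release 29 on GRCh38, promoters from RefSeq.

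The members and lists were chosen with earlier results of these data known. Named were the members, every listed gene of the lists, and for each member the 3 features with the highest r among those with a mean of at least 20. Alternatives were medians, pseudocounts of 0.1 and 5, features with a mean of 10 or more, other arm definitions, a replicate block and left-out libraries. The rest was done in Python 3.11.15 (scipy 1.17.1, numpy 2.4.6, pandas 2.3.3, matplotlib 3.10.9).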

Additional observations from a re-analysis of the deposited data

How the results depend on the processing

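The log2 ratios of means of the members stayed above 0 in all 40 alternatives (each of 5 genes with a library left out, both libraries that stood apart left out, or medians), and 7 of these moved by more than the pooled SD of the libraries. For the 4 members without overlap the sign could not have changed, as every GDF15 library lay above every untreated one. Only TAP1 could have gone below 0, and its lowest value was 0.06. With medians over libraries the log2 ratio was 0.11 for NLRC5, 0.14 for TAP1, 0.19 for TAPBP, 0.83 for CIITA and 1.34 for CD74. The cause was not tested. The lead of class II over class I stayed between 0.27 and 0.92 in every alternative, with a range of 0.39 to 0.87 when single libraries were left out. Pseudocounts of 0.1 and 5 gave leads of 0.63 and 0.53, and summed normalized counts per arm 0.82. Members without overlap numbered 4 or 5 of 5 with any single library left out. This count could not fall below 4, because leaving out a library cannot make separated groups overlap. Of the 15 genes named as most like a member, 12 were also among the top 3 by deviations from group means. These deviations still hold the peak of GDF15 replicate 1. Without that library, r of the 15 genes with their member ran from 0.89 (NOCT with CD74) to 0.99 (CADM3 with CIITA). The remaining libraries were among those on which the 15 genes were picked, so these values are no independent check.

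By limma, 159 listed features had an unadjusted p under 0.05. Leaving out single libraries gave 94 to 192, the lowest without untreated replicate 2, and 103 without both libraries that stood apart, an alternative fitted after seeing the data. With a replicate block the count was 229, with 3 members called in place of 2. Same-numbered libraries had correlations of their deviations from group means of 0.11, 0.22 and -0.05. GDF15 replicates 1 and 2 correlated best with the untreated library of their own number, and GDF15 replicate 3 with untreated replicate 2, at 0.04. All these values are low, and whether same-numbered libraries were paired cannot be told from them. A planned count model on recovered reads was not run. All values were whole multiples of a step, but an automated test that looks at low values only did not accept the columns as recovered reads. The selected table leaves depth unknown. CIITA, with at most 51 reads in a library if a step is 1 read, is the member most limited by counting.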
